A study of Drosophila melanogaster with 2 samples.

Results

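The regions described here are the 374 binding peaks of the Drosophila coactivator Taiman that lay between genes, over 500 bp and at most 10 kb from the nearest transcription start site (TSS) of a protein-coding gene. Among the peaks that the submitters kept, they were chosen by position alone. They made up 14.6% (95% Clopper-Pearson interval 13.2 to 16.0%) of the 2567 peaks on arms 2L, 2R, 3L, 3R, 4 and X. The submitters immunoprecipitated chromatin with an antibody against GFP from whole wandering larvae of the third instar, males and females pooled, and sequenced the recovered DNA (ChIP-seq). All animals came from 1 transgenic line in which tai is fused to eGFP at the C terminus, which makes 1 group. It has 2 biological replicates, which the labels number 1 and 3, and no untagged or hormone-treated group to set against it. Both replicates were called against the same control, and read depth is unknown. A peak in this material can come from any tissue of the larva. The peaks are those the submitters kept by IDR (irreproducible discovery rate), a measure of how far ranks repeat between replicates. The signal given below is the value that the submitters gave each peak relative to the control. Its scale is not known. The same position rule held for 5305 regions of the submitters' pooled list that did not reach the IDR list. These lower-ranked regions, with signals of 24.8 to 65.1, serve as the comparison for position and sequence.

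Taiman is the fly member of the p160 family of steroid receptor coactivators, with bHLH and PAS domains. It does not need to touch DNA itself: it is recruited by the ecdysone receptor EcR with its partner Ultraspiracle, pairs with the juvenile hormone receptors Met and Gce, and acts with Yorkie in the Hippo pathway. The wandering larva is near pupariation, when ecdysone rises, juvenile hormone has fallen and imaginal discs and larval tissues follow different programmes. Peaks between genes at such distances are where enhancers and unannotated or noncoding promoters are found in a compact genome, and they cannot be assigned to a target gene by position alone.

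The windows below are shown because the results turn on them: the peaks of highest signal and the peaks upstream of kay, hid, Kr-h1, tara and heca. Each is 200 bases of the plus strand around the summit, read from RefSeq's copy of the dm6 assembly. Capitals mark matches on either strand to any of 15 motifs or to the string CAGTG, all given with their shares further on.
CG4004 to Paics, chrX:12752258-12752457: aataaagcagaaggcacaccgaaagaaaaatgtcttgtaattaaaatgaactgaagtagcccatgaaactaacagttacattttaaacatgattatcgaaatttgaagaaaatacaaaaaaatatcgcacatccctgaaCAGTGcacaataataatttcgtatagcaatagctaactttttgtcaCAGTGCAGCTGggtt
COX7AL2 to CG31668, chr2L:2202319-2202518: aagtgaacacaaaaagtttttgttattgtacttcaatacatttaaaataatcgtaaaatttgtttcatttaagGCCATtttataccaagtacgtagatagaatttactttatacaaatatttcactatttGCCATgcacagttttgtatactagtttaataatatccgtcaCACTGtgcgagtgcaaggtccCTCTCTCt
yata to kay, chr3R:29763259-29763458: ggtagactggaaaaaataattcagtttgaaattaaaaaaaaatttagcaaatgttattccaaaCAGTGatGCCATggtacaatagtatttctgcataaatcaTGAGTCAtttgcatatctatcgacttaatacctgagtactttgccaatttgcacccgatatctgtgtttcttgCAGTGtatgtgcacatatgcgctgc
hid to CG7320, chr3L:18195073-18195272: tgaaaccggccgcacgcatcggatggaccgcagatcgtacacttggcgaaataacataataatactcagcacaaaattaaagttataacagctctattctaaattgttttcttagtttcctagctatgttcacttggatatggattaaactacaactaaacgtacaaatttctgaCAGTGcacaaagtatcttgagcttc
Kr-h2 to Kr-h1, chr2L:6078991-6079190: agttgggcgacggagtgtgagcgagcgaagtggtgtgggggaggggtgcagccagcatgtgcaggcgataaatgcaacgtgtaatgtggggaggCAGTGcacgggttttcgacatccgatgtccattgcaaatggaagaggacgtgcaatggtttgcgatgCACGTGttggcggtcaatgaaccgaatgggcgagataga
mtSSB to tara, chr3R:16222334-16222533: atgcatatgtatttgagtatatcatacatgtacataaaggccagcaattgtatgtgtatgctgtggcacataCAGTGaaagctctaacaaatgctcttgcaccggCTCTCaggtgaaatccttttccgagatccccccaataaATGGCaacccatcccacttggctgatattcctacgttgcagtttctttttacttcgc
CG18404 to heca, chr3R:30271122-30271321: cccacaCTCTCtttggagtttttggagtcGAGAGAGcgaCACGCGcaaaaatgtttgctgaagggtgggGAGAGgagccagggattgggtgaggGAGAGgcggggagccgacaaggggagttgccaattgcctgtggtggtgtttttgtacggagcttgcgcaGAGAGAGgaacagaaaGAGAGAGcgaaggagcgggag
In capitals, the window at kay holds TGAGTCA, a match to the AP-1 site that Fos and Jun dimers bind. The window at Kr-h1 holds the E-box CACGTG, and the one at Paics an E-box CAGCTG fused to a CAGTG. The window at heca, that of a peak of signal 162, has 9 matches to GAGAG, some of them overlapping, and no CAGTG. The strongest heca peak, of 227, has a CAGTG and no GAGAG in its 200 bases. The other 6 windows all hold CAGTG or its reverse complement. These windows were picked for display after their values were known.

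The intergenic peaks were as strong as the arm peaks in general and spread over a wide range. Their signal ran from 65.2 to 650 with a median of 88.0 (quartiles 72.8 and 119), against a median of 89.1 for all 2567 arm peaks. Peaks within 500 bp of a TSS had a median of 96.7, peaks inside genes at the same distances 85.2, and peaks over 10 kb from any TSS 87.1. The lowest signal, 65.2, was that of the whole IDR list. Of the 374 peaks, 327 had the same width of 404 bp and a median signal of 82.6. The other 47 were of other widths and had a median of 208, and all of the strongest 20 were among them.

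Fewer intergenic peaks were among the strongest of both replicates than peaks at promoters. A peak was counted when regions overlapping it stood among the 2567 strongest arm regions of replicate 1 and of replicate 3. This held for 165 intergenic peaks (44.1%, 39.0 to 49.3%), beside 50.4% of all arm peaks, 57.9% (54.5 to 61.3%) of promoter peaks and 47.2% (44.1 to 50.3%) of peaks inside genes. Replicate 1 alone placed 105 of them in its top and replicate 3 alone 68, and 36 were in neither. In replicate 1 no region overlapped 2 of the peaks, and in replicate 3 none overlapped 11. Of the 187 stronger peaks 78.6% were in the top of both replicates, and of the 187 weaker ones 9.63%, an order that follows from the pooled signal being made from the same replicates. A region of any rank was present in both replicates for 96.3% and 96.8% of them. Among the 361 peaks with a region in both, the signals of the 2 replicates had a Spearman's rho of 0.34. It was 0.38 among the stronger peaks and -0.56 among the weaker ones. These groups, and the list itself with its lowest signal of 65.2, are cut by a pooled signal made from the same replicates, so the values are not free of that cut. The points of these correlations share their control. In each replicate, 16 intergenic peaks took their value and rank from a region that another intergenic peak also used. Such readings are counted more than once in these shares and correlations. Intervals here and below cover counting error only.

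**Figure D1:**
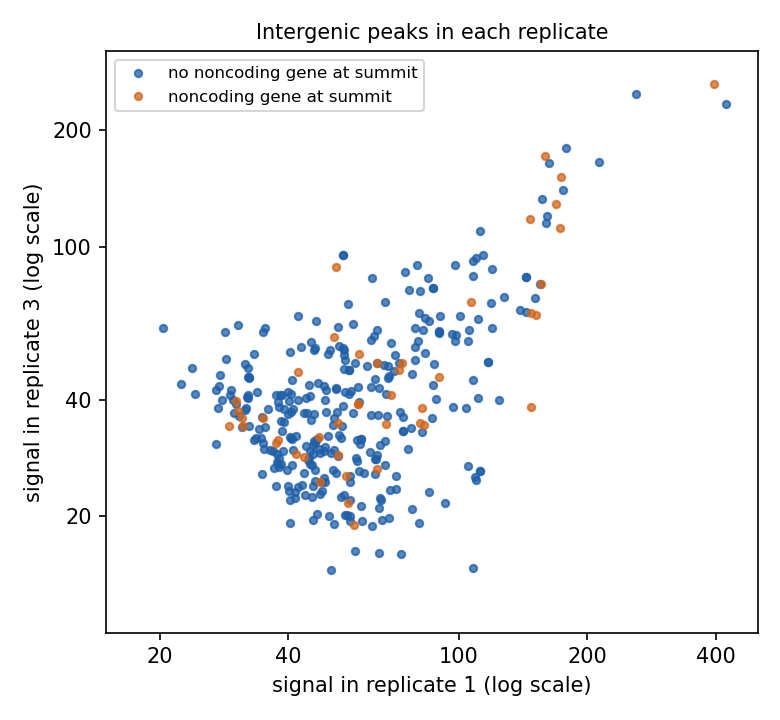
Signal of the strongest overlapping region in replicate 1 (x axis) and in replicate 3 (y axis), both on log scales, for the 361 intergenic peaks with a region in both replicates. Each point is 1 peak, orange where a noncoding gene lies at its summit. Peaks that overlap the same replicate region share its value, which holds for 16 intergenic peaks in each replicate. Peaks of the highest signal are high in both replicates, and among the weaker 187 peaks the 2 replicates run in inverse order (Spearman's rho -0.56).

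The strongest peaks lay in gaps between genes of diverse kinds. The peak of highest signal, 650, stood at chrX:12752157-12752551 between CG4004 and Paics, the latter an enzyme of purine synthesis. Its signal was 395 in replicate 1, the ninth-strongest arm region there, and 263 in replicate 3, where it ranked 14. The next, at 642, lay at chr2L:2202090-2202588 between COX7AL2, named for a cytochrome c oxidase subunit, and CG31668. It ranked 5 in replicate 1 with a signal of 421 and 21 in replicate 3 with 234. A peak of 505 was between CG43245 and CG12523, with 260 and 248 in replicates 1 and 3. Each of these 3 peaks ranked among the strongest 42 arm regions of both replicates.

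Several of the strongest 20 stood upstream of regulatory genes. The peak of signal 367 at chr3R:29763207-29763475 lay 2637 bp upstream of kay, the fly Fos, with 178 and 180 in replicates 1 and 3. A peak of 307 at chr3L:18195065-18195299 lay between hid, the inhibitor of Diap1 that starts apoptosis, and CG7320, with 175 in replicate 1 and 140 in replicate 3. Its nearest TSS was that of CG7320, at 6322 bp. The peak of 282 at chr2L:6079022-6079228 was 3513 bp upstream of Kr-h1, a zinc finger factor that responds to juvenile hormone and ecdysone, with 173 and 112 in the replicates. A peak of 270 lay 3218 bp upstream of tara, a transcriptional co-regulator, and had 161 and 120. The peak of 265 was 6935 bp upstream of peb (hindsight), a zinc finger factor of epithelia, with 147 and 118. A peak of 279 lay in the gap where the 3′ ends of fj, which encodes the Golgi kinase that modifies Fat and Dachsous, and Ote face each other. It was 33640 bp from the end of fj and 7226 bp from the TSS of Ote. The strongest peak beside Act5C, the cytoplasmic actin, had a signal of 293 and lay 4712 bp upstream of it. Each of these peaks ranked between 37 and 148 in both replicates, except that of peb, which ranked 193 in replicate 1 and 100 in replicate 3. The rest of the strongest 20 included peaks of 325 between NimC3, a receptor of the Nimrod family of phagocytosis proteins, and hll, of 299 between the odorant-binding protein genes Obp56g and Obp56h, of 233 between CG3092 and yip3, of 230 between CG7560 and CG6149, and of 218 between CG44362 and CG7560.

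Many of the intergenic peaks shared their gap with another. The 374 peaks fell into 255 gaps, 4.47% of the 5704 gaps with sequence under the rule. Single peaks filled 185 gaps, 70 gaps held 2 or more (189 peaks) and 23 held 3 or more (95 peaks). Peaks in gaps of 3 or more had a median signal of 96.1, and peaks alone in their gap 80.3. Of the 95, 53.7% were in the top of both replicates, and of the 185 alone 37.8%. Another peak's summit lay within 2000 bp for 104 peaks, and 18 had an interval that overlapped another intergenic peak, so these are not separate measurements of separate sites.

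The gap with the most peaks, 8, lay between CG18404 and heca (headcase, known for its part in imaginal cells). It is 23834 bp long, and its peaks fell into a group of 5 nearer CG18404 and a group of 3 nearer heca. From left to right their signals were 108, 108, 117, 172 and 65.6, then 162, 227 and 79.1. In replicate 1 the same peaks read 85.2, 53.7, 66.9, 124, 33.3, 89.8, 144 and 70.7, and in replicate 3 23.1, 54.6, 49.4, 40.1, 31.5, 60.0, 83.6 and 47.6. The peak of 227 was the highest of the gap in both. The 6 peaks between COX7AL2 and CG31668 were packed into a gap of only 5808 bp, with signals of 102, 176, 373, 91.2, 642 and 218. The same 2 peaks led this gap in both replicates. In the gap of mtSSB, a mitochondrial single-strand DNA-binding protein, and tara, 3 peaks near mtSSB had 109, 74.3 and 71.6. The other 3, near tara, had 270, 70.1 and 123. The first 3 were weak in replicate 3, at 14.7, 19.8 and 22.0 against 108, 68.9 and 55.6 in replicate 1. Near tara the readings were 161, 48.0 and 64.3 in replicate 1 and 120, 24.6 and 60.6 in replicate 3, so the peak of 70.1 was weak there too.

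The gap between hng3 and CG13898 held 6 peaks at its far ends, 4 within about 7 kb of hng3 (86.3, 174, 75.5 and 154) and 2 near CG13898 (77.3 and 330). That gap is 47937 bp long, so its middle lies beyond the 10 kb limit, and it held 9 IDR summits in all. Between CG33795 and CG33687 the 6 peaks ran from 73.6 to 198, and 2 of them overlapped. The gap from CG4004 to Paics held 5 peaks, none under 134, and 3 further ones beside the strongest were above 200. The 5 peaks between hid and CG7320 had signals of 101, 103, 110, 307 and 72.3 from the hid side on. In replicate 1 they read 76.1, 54.3, 72.9, 175 and 44.9, and in replicate 3 29.9, 50.8, 37.3, 140 and 27.3, so that 1 of the 5 stood clear of the others in both. Gaps of 4 peaks lay upstream of CrebA, the factor that drives secretory genes in the salivary gland (82.6 to 144), and upstream of Act5C (88.5 to 293), and between mab-21 and rux (73.5 to 96.1), Jhbp1 and CG14662 (66.5 to 91.3) and CG34460 and Ugt37C1 (77.8 to 145). Overlapping intervals are counted apart here: the CrebA peaks of 144 and 86.3, the Act5C peaks of 160 and 88.7, and those of 305 and 134 between CG4004 and Paics. The 11 gaps of 3 included those of NimC3 and hll, ptc and CG8635, RYBP and Ppa, dysf and Cipc, chm and muc, Alp13 and Fmr1, CG9300 and Shal, CG4218 and CG3473, CG43389 and ckd, dls and CG13073, and Ir68a and scyl.

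**Figure D2:**
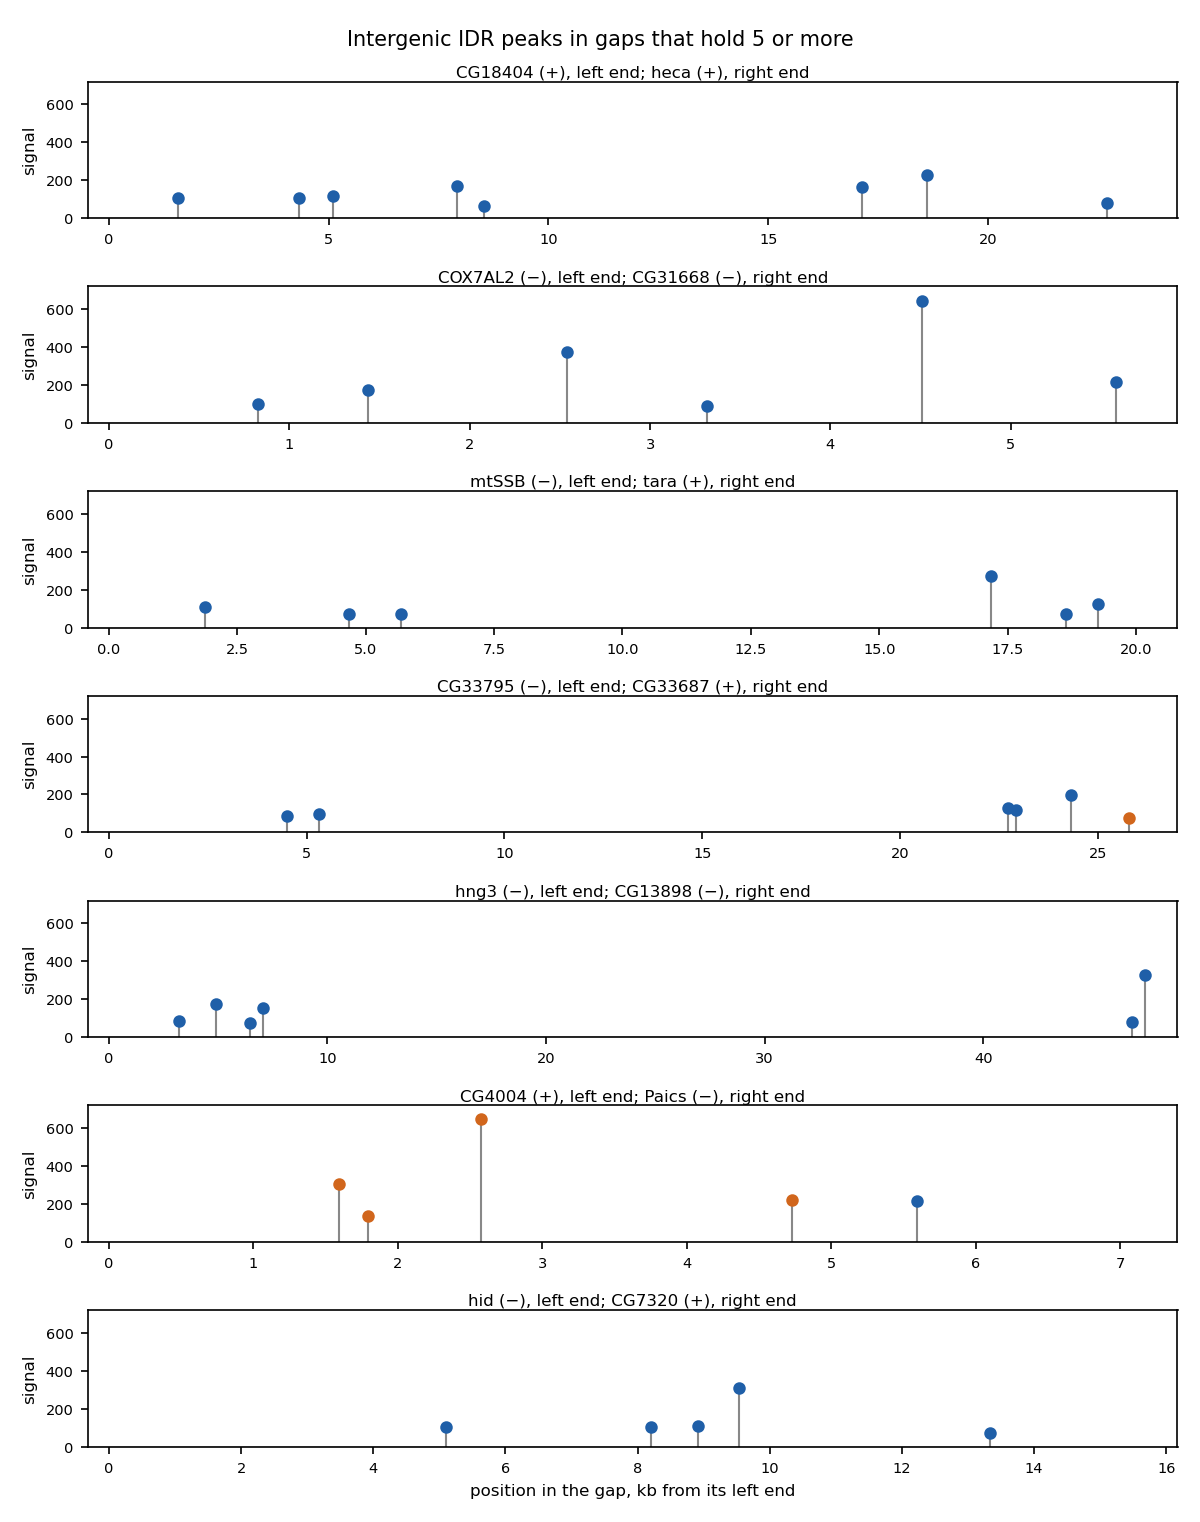
Position in kb from the left end of the gap (x axis, scaled to each gap) and signal (y axis, same scale in each panel) of the intergenic peaks in the 7 gaps that hold 5 or more. Each stem is 1 peak, orange where a noncoding gene lies at its summit, and the signs give the strand of the flanking genes. The 2 highest peaks, of 642 and 650, stand between COX7AL2 and CG31668 and between CG4004 and Paics, and sequence over 10 kb from any TSS, such as the middle of the hng3 gap, is outside the rule and shows no peaks here.

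Intergenic peaks lay closer to promoters than lower-ranked regions did, but no more often on the upstream side. The median distance to the nearest TSS was 2863 bp, against 3388 bp for the lower-ranked regions. Between 500 and 1000 bp stood 61 peaks (16.3%, 12.7 to 20.5%) and 11.2% of lower-ranked regions. From 2000 to 5000 bp the order was the other way, with 118 peaks (31.6%, 26.9 to 36.5%) and 38.3%. Signal did not follow distance: the median was 86.3 in the nearest bin and 86.6 in the one from 5000 to 10000 bp. On the 5′ side of the gene with the nearest TSS lay 241 peaks (64.4%, 59.4 to 69.3%), beside 66.0% of lower-ranked regions and 64.9% of the bases under the rule. Peaks on the upstream side had a median signal of 89.6, and the 133 past a 3′ end 81.5.

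**Figure D3:**
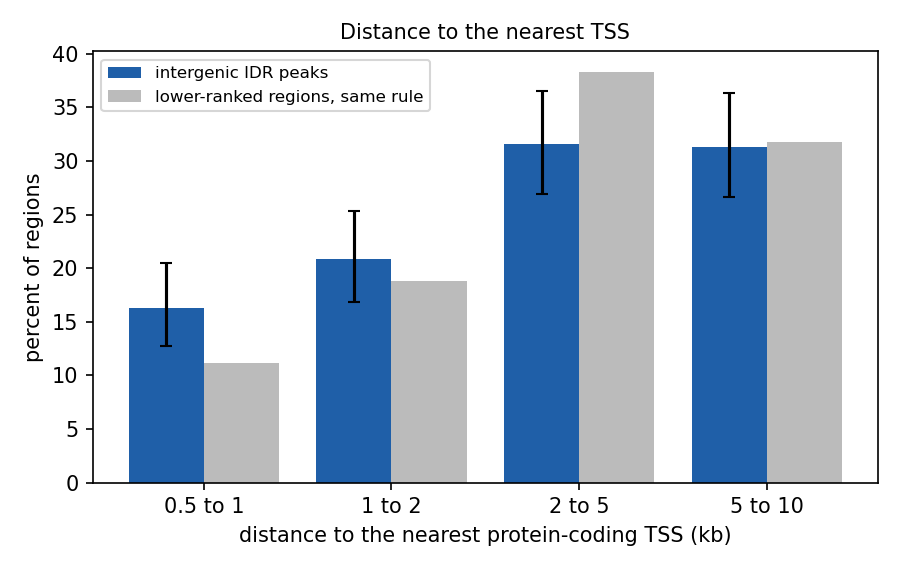
Share of the 374 intergenic peaks and of the 5305 lower-ranked regions (y axis, percent) by distance of the summit to the nearest protein-coding TSS (x axis, kb). Error bars are 95% Clopper-Pearson intervals of the intergenic peaks. The intergenic peaks exceed the lower-ranked regions in the nearest bin, 16.3% against 11.2%, and fall below them from 2000 to 5000 bp.

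Gaps of up to 5 kb held more peaks for their length than long ones. Over the 21.8 Mb that met the rule there were 17.2 peaks per Mb. Gaps of up to 2 kb had 22.9 per Mb (28 peaks), gaps of 2 to 5 kb 25.2 (64 peaks), gaps of 10 to 20 kb 14.5 (90 peaks) and longer ones 14.8 (113 peaks). The share of the peaks in gaps of 2 to 5 kb, 17.1% (13.4 to 21.3%), had an interval above their share of the sequence, 11.7%. That in gaps of up to 2 kb, 7.49% (5.03 to 10.6%), had one that held theirs, 5.62%. Lower-ranked regions showed no such order, with 233 to 250 per Mb in every length class. By the orientation of the flanking genes, divergent gaps had 19.0 peaks per Mb, convergent 18.5 and tandem 15.6, which is 120, 77 and 177 peaks, and their shares of peaks had intervals that held their shares of the sequence. By arm the density ran from 11.9 per Mb on X (40 peaks) to 22.2 on 3L (102 peaks), leaving aside the 5 peaks of chromosome 4. On X the share of the peaks, 10.7% (7.75 to 14.3%), was under its share of the sequence, 15.4%, and that of the lower-ranked regions, 8.14%, was lower still. With both sexes pooled, the X is present in fewer copies than an autosome, and the part of this in the result was not tested.

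A noncoding gene lay at the summit of 45 intergenic peaks (12%, 8.91 to 15.8%), more than the 7.30% of lower-ranked regions and the 7.50% of bases under the rule. They were 35 genes, 34 of them named as long noncoding RNAs and 1 as an antisense RNA, or 2.60% of the 1344 noncoding genes with sequence under the rule. The summit was in an exon at 31 and in an intron at 14 peaks, and within 500 bp of the noncoding gene's own TSS at 18. Counting every peak, 50 (13.4%, 10.1 to 17.2%) had a noncoding TSS within 500 bp, inside or outside its span, against 6.73% of lower-ranked regions. The 45 had a median signal of 103, and the other 329 of 86.3. In replicate 1 the medians were 58.5 and 53.7 and in replicate 3 38.8 and 38.2, so that they nearly coincided in replicate 3. In the top of both replicates were 57.8% of the 45 and 42.2% of the others. The 50 peaks within 500 bp of a noncoding TSS went the other way. Their median signal was 79.7, against 88.0 for all 374, and 38.0% of them were in the top of both, against 44.1%. Annotated transposable elements held 2 of the 374 summits (0.535%), against 1.96% of lower-ranked regions.

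Noncoding genes stood at 8 of the strongest 20 peaks. lncRNA:CR44619 held the peak of 650 in an exon, 490 bp from its TSS, and a second one of 221. lncRNA:Vinr, which overlaps it, held the neighbouring peak of 305. The summit of the 325 peak between NimC3 and hll lay 30 bp from the TSS of lncRNA:CR31840, a gene of 378 bp. The Kr-h1 peak stood in an exon of lncRNA:CR9162, 637 bp from its TSS. lncRNA:CR45668 and lncRNA:CR32773 held the strongest Act5C and peb peaks in introns. lncRNA:CR44363 held the peak of 218 between CG44362 and CG7560, in an exon 528 bp from the TSS. The next in order were lncRNA:CR44676 (218, between CG9300 and Shal) and lncRNA:CR45054 (173, between Alp13 and Fmr1).

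Among the noncoding genes with a peak, 6 host miRNA genes, a feature looked up after the values were seen. Noncoding genes that hold a miRNA gene and have sequence under the rule numbered 26, and these 6 are 23.1% of them (8.97 to 43.6%). Of the 1318 noncoding genes without one, 29 (2.20%) had a peak. The hosts are also longer, with a median of 4412 bp of sequence under the rule against 540 bp, and per Mb of such sequence they had 86.5 peaks against 24.1. The host of bantam, a miRNA of tissue growth and cell survival that is a target of Yorkie, held a peak of 126 at chr3L:640594-640997, 1413 bp from the hairpin (73.6 in replicate 1, 50 in replicate 3). The host of mir-8 had 3 peaks, of 145, 106 and 77.8, the strongest 165 bp from the host's TSS and 908 bp from the hairpin. In replicate 1 they read 51.8, 51.2 and 37.3, and in replicate 3 88.3, 58.3 and 31.0. mir-8 acts in body growth through insulin signalling in the fat body. The host of mir-275 had peaks of 121 and 90.6, at 454 and 1394 bp from the hairpin. let7C, the ecdysone-responsive transcript of mir-100, let-7 and mir-125, had a peak of 97.5 (58.1 and 39.2 in the replicates), 7594 bp from the nearest of them. The host of mir-282 had peaks of 92.1, 78.8 and 75.1, and Hsromega, a stress-induced nuclear RNA that holds mir-4951 far downstream, had peaks of 103 and 93.0 near its start.

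Protein-coding genes flanking a peak numbered 476, which is 3.41% of 13945, and 283 (2.03%) had the nearest TSS. Of the 382 matched genes in 25 lists of pathways and cell types, 40 flanked a peak (10.5%), at 28.3 pairs of gene and peak per Mb of sequence flanking them against 17.2 for all genes. The lists were chosen with earlier results of these data known, so the counts below are descriptions. A gene is counted when it flanks a peak. For 12 of the 40 the nearest TSS to every such peak was that of another gene, and these were Eip75B, ImpE2, Hr51, wg, Diap1, eyg, E(spl)mbeta-HLH, ph-p, chico, Cpr49Ac, ple and cwo.

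Of the 26 genes listed under ecdysone response, 5 flanked a peak, and whether each responds to ecdysone was not tested here. Beside Kr-h1 (282), these were Eip75B, the E75 nuclear receptor, Cdk4, Ldh and ImpE2. The gap of Eip75B held peaks of 110 and 78.3, at 5632 and 9125 bp from the TSS of its neighbour CG5290, which was the nearer gene. They were 52.6 and 40.5 in replicate 1 and 55.4 and 41.5 in replicate 3. Another peak, 496 bp from an Eip75B TSS with a signal of 72.1, fell just outside the distance limit. Cdk4 had 106 at 639 bp and Ldh 101 at 1971 bp. The ImpE2 peak, of 75.8, lay 1412 bp upstream of Eip63E, the nearest gene, which was not counted in the list. Nuclear receptors flanked peaks in 3 of 21 cases, Hr51 (148), Eip75B and tll (68.2 at 9939 bp, the peak nearest to the upper limit). Kr-h1 was the only one of the 11 listed juvenile hormone genes. Jhbp1, which was not counted in that list, flanked a gap of 4 peaks. From the list of 14 ecdysteroid genes only shd, which encodes the enzyme that makes 20-hydroxyecdysone from ecdysone, flanked a peak (79.5). Of 12 bHLH-PAS genes, the family of tai itself, dysf and sim (71.9) had a peak. The gap of dysf held overlapping peaks of 94.0 and 90.3, both nearest to Cipc, and one of 66.5 at 720 bp from the dysf TSS. No intergenic peak flanked tai, EcR or usp.

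The Hippo pathway and its targets had 5 of 20. Upstream components of the pathway with a peak close by were ex, whose FERM protein activates Hippo signalling (198, 949 bp upstream), and ds, the Dachsous cadherin (165, 648 bp upstream). The gap of fj held the peak of 279 near Ote and one of 75.2 that was 9378 bp from the fj TSS. The ex peak had 108 and 91.7 in replicates 1 and 3, and the ds peak 81.4 and 76.6. The gaps of the targets wg and Diap1 held weaker ones, 74.4 at 4476 bp from the TSS of Wnt4, and 70.5 and 66.7 nearer to CG5895. Wing and leg patterning genes had 7 of 32, among them dac, a nuclear factor of leg and eye (196, 548 bp upstream, 114 and 95.1 in the replicates). The others were ptc, the Hedgehog receptor (146, with 102 and 69.4 in the same gap), nkd, a feedback inhibitor of Wingless (104), hh, the Hedgehog ligand (86.6), Dad, the inhibitory Smad (77.7), eyg and wg. Their density was 19.5 pairs per Mb, beside 17.2 for all genes.

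Of the Notch list 2 of 17 had a peak, E(spl)mbeta-HLH, a repressor that Notch switches on (187; 108 and 84.1 in the replicates), and fng, the glycosyltransferase that tunes the receptor (119). The Polycomb group had 3 of 14. The neighbours ph-p and ph-d share 1 peak of 130 and Psc has 97.9, and all 3 encode subunits of the same repressive complex, PRC1. Insulin and TOR genes had 3 of 18: Thor, the translation inhibitor 4E-BP (119), foxo (84.4) and chico, the insulin receptor substrate (66.9). GATA and forkhead factors had 3 of 20 with foxo, CHES-1-like (78.8) and slp2. The slp2 gap held a peak of 75.2 nearest to the other flanking gene and one of 71.1 at 7481 bp from the slp2 TSS. Apoptosis and autophagy had 2 of 15, hid and Diap1. Fat body genes had 2 of 13, the hexamerins Lsp1gamma (88.0) and Lsp1beta (68.2), and cuticle genes 2 of 19, Cpr49Ac (93.9) and ple, the tyrosine hydroxylase (78.7). Single genes had a peak in the lists of EGF receptor and JNK (kay, of 17), glue and salivary gland (CrebA, of 14), midgut (pdm3, 93.9, of 14) and the circadian loop (cwo, 69.0, of 10). None did in the lists of 8 Hox genes, 17 muscle, 15 neuron, 10 trachea, 14 hemocyte, 14 heat shock and 26 odorant and gustatory receptor genes. With a share of only 3.41% over all protein-coding genes, lists this short can hold none. Their intervals reach from 13.2% for the odorant and gustatory receptors up to 36.9% for the Hox genes, so no absence is shown. These counts hold for the listed genes only. Genes of such kinds outside the lists did flank peaks, such as the receptor genes Gr93d (150), Gr93a and Gr93b (136) and Or45b (89.5), and Hsp60B (165). The peak of 165 is the one given above for ds, whose TSS is the nearest at 648 bp. That of 89.5 is nearest to CG1888, at 3616 bp.

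Genes flanking an intergenic peak more often had another peak of their own. An IDR summit within 500 bp of their TSS was found for 80 of the 476 (16.8%, 13.6 to 20.5%), beside 6.32% of all protein-coding genes and 6.92% (6.36 to 7.51%) of the 7614 genes that flank sequence under the rule but no intergenic peak. Inside the gene, away from the TSS, 19.3% (15.9 to 23.2%) had a peak, beside 6.35% and 7.49%. hng3, mtSSB and tara had one at their own TSS. heca and COX7AL2 had one inside the gene, and CG18404, CG31668, CG13898, CG33795, CG33687 and CG4004 had neither.

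Of 15 motifs searched on both strands in 300 bp around the summit, the promoter elements were nearly absent from intergenic peaks. The DNA replication-related element TATCGATA was in 0.802% (0.166 to 2.33%), against 9.16% of promoter peaks and 0.867% of lower-ranked regions. The core promoter Motif 1, searched as GGTCACACT, was in 0 of 374, which allows a share of up to 0.981%, against 2.73% of promoter peaks. GAGAG, the core that the GAGA factor binds, was in 33.7% (28.9 to 38.7%), near the 37.5% of promoter peaks and above the 22.8% (21.7 to 24.0%) of lower-ranked regions. It was in 40.6% of the 187 stronger peaks and 26.7% of the 187 weaker ones. The median GC content was 38.7% in the stronger and 35.3% in the weaker peaks. It was 36.7% in all intergenic peaks and 34.3% in lower-ranked regions. The part of base composition in these motif shares was not tested. The hormone response core CACGCG was in 5.88% (3.72 to 8.77%) and in 3.39% of lower-ranked regions. The E-box CAGCTG was in 9.89% (7.06 to 13.4%) and 7.28%, an interval that holds the lower-ranked share. The Pho site, searched as GCCAT, was in 39.6% and 40.8% of the 2 sets. The GATA site, searched as TGATAA, was in 21.9% and 24.1%. The E-box CACGTG was in 2.41% and 2.30%. The AP-1 site, searched with any base in the middle of the letters capitalised at kay, was in 6.42% and 7.22%. The nuclear receptor hexamer, searched as AGGTCA, was in 4.01% and 5.86%. The forkhead motif TGTTTAC was in 6.95% and the Scalloped motif CATTCC in 10.7% of intergenic peaks. The Su(H) motif GTGGGAA was in 3.74%, the Zelda motif CAGGTAG in 1.07% and the Grainyhead motif AACCGGTT in 0.535%. The match to AP-1 at the strongest kay peak and that to CACGTG at Kr-h1 are thus letters that few of the peaks hold. A match is a description of the letters in a window, not of a bound factor.

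**Figure D4:**
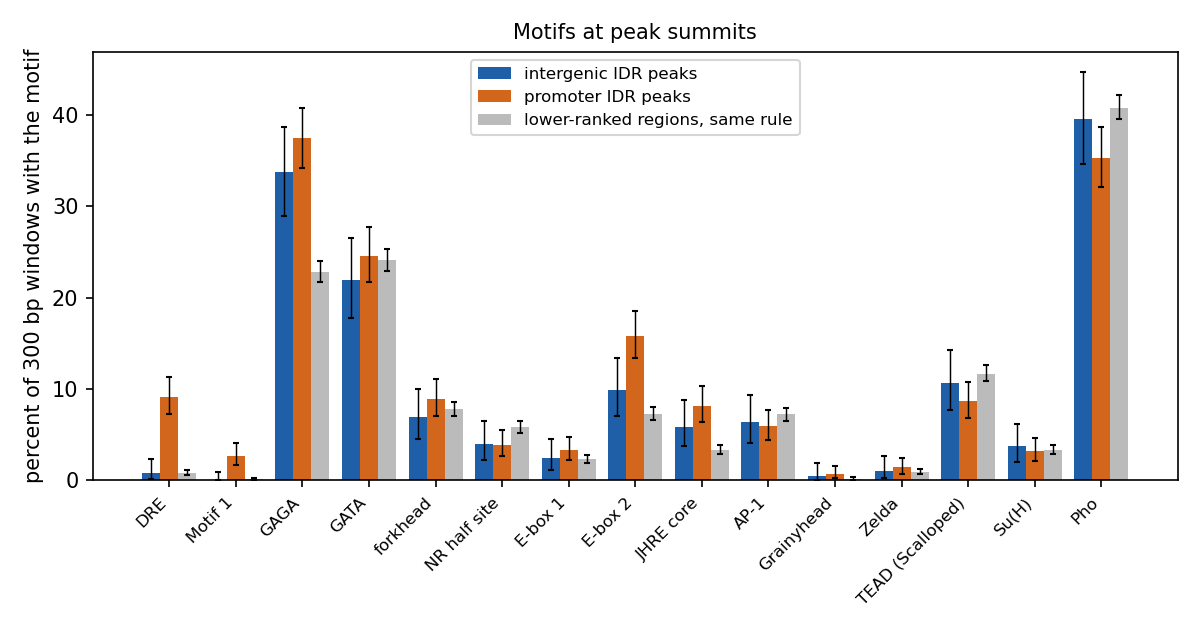
Percent of 300 bp windows (y axis) that hold each of 15 motifs (x axis) in the 374 intergenic peaks, the 841 promoter peaks and the 5305 lower-ranked regions, with 95% Clopper-Pearson intervals. E-box 1 is CACGTG and E-box 2 CAGCTG. DRE and Motif 1 stand out in promoter peaks only, and GAGA is higher in both sets of IDR peaks than in lower-ranked regions.

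A short string outside this set differed more in share between the intergenic peaks and the lower-ranked regions than any of the 15 motifs did. The comparison is uneven, since most of those motifs are longer and found in few windows, which limits how far their shares can differ. CAGTG, noticed in the strongest windows after their values were known, was on either strand in 211 of 374 (56.4%, 51.2 to 61.5%) and in 34.1% (32.8 to 35.4%) of lower-ranked regions. Of all 512 strings of 5 bases, counted with their reverse complements, it had the largest difference between them, 22.3 percentage points, and the next, GTGTA, had 14.6 (54.0% and 39.4%). The median GC content was 36.7% in the intergenic peaks and 34.3% in the lower-ranked regions, and the part of base composition in this difference was not tested. The string is not particular to intergenic peaks, since 53.7% of promoter peaks, 54.6% of peaks inside genes and 54.6% of the far ones hold it.

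The share with CAGTG followed the signal within the intergenic peaks. With the peaks cut into 4 equal groups by signal, from the strongest to the weakest, 74.5% (64.4 to 82.9%), 62.8%, 48.4% and 39.8% (29.8 to 50.5%) of the windows held it, and 17 of the strongest 20 did. The lower-ranked regions, cut the same way, had 36.8%, 33.4%, 32.0% and 34.3%. Of the 165 peaks in the top of both replicates 64.2% (56.4 to 71.5%) had it, and of the other 209 50.2% (43.3 to 57.2%). Base composition moved with the signal too: the median GC content was 39.7% in the strongest group and 34.0% in the weakest, and its part in the result was not tested. In the strongest group the copy nearest to the summit was under 50 bp away in 26.6% of windows and 50 to 99 bp away in 35.1%, whereas in the weakest group these were 21.5% and 10.8%. In the windows printed for hid and COX7AL2, for example, CAGTG stands toward one end rather than at the summit. The string was noticed in the strongest windows of these same peaks, so a high share at the strong end is in part built in by that choice. Its shares and their order by signal are a description.

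**Figure D5:**
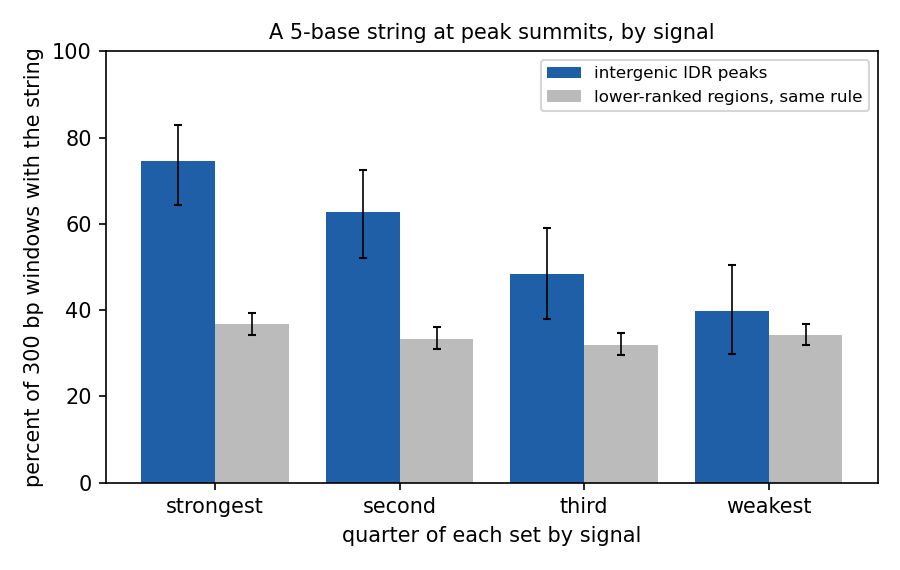
Percent of 300 bp windows (y axis) with CAGTG on either strand, by signal (x axis, 4 equal groups of each set), in the intergenic peaks (93 or 94 a group) and in the lower-ranked regions (1326 or 1327 a group), with 95% Clopper-Pearson intervals. The share falls from 74.5% in the strongest group of the intergenic peaks to 39.8% in the weakest and stays between 32.0% and 36.8% in the lower-ranked regions. The string was picked from the strongest of these windows, which favours a high share in the strongest group.

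The 3 peaks nearest to the lower limit were 507 bp from CG43814, 516 bp from Cyp6v1 and 520 bp from Act5C, with signals of 76.7, 69.0 and 88.7. Just under it were peaks at 499 bp from dl, 496 bp from Eip75B and 491 bp from Dad, with 67.4, 72.1 and 94.0. At the upper limit the last inside were those of tll, disco-r and atlas, with 68.2, 71.3 and 70.6, and the first outside those of CG6163, CG42680 and CG15283, with 99.7, 69.7 and 127.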

How the data were processed

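Chromatin of whole larvae of a tai-eGFP line was immunoprecipitated for GFP in 2 biological replicates, each from its own biosample, per the labels. The deposited lists of the authors give regions on dm6 with a signal (column 7, relative to the control), and their deposited text records say that each replicate was called against the same control, and the pooled list from both. Not given in the sources used here are aligner and peak caller. Depth is unknown. The dm3 lists and the other score columns were not used.

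Peaks of the IDR list on 6 arms were classed by summit (start plus summit offset) with the Ensembl release 115 annotation of BDGP6.54. Lower-ranked regions are pooled regions outside the IDR list. A gap is the sequence between the flanking protein-coding genes, and its bases under the rule were counted one by one. Replicate values are those of the strongest region overlapping by 1 bp or more. Motifs were searched in 300 bp of RefSeq's copy of the assembly. Shares have 95% Clopper-Pearson intervals, and no test was made, since 1 group gives no contrast. The position code was tested on simulated data.

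Alternatives covered the distance limits, gene spans, overlaps, single replicates, TSS choice and motif window. The members and lists were chosen with earlier results of these data known. Genes were named by rule: those flanking the 20 strongest peaks or gaps of 3 or more, up to 4 per list, the noncoding genes of the 10 strongest such peaks, and tai, EcR and usp. The miRNA hosts, CAGTG, ImpE2, Eip63E, Dad, eyg, Gr93a, Gr93b, Gr93d, Or45b, Hsp60B and the genes at the edges of the rule were added after values were seen. Coordinates are 1-based. Versions were matplotlib 3.10.9, scipy 1.17.1, pandas 2.3.3, numpy 2.4.6 and Python 3.11.15.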

Additional observations from a re-analysis of the deposited data

How the results depend on the processing

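Of the 41 alternative values, 30 stayed within the range set for them and 11 moved. Those ranges were wide for counts. The 30 include 257 intergenic peaks against 374, and 28 listed genes by nearest TSS against 40. Tighter position limits can only remove peaks from the set. The number of intergenic peaks was 257 with an upper limit of 5 kb, 313 with a lower limit of 1000 bp, 347 with the whole interval outside genes and 375 with all annotated genes, of which 301 were shared. The ratio of their median signal to that of all arm peaks, 0.988, ran from 0.946 to 0.970 when each replicate was left out. The share in the top of both replicates was 78.6% for the 187 stronger peaks. Counting noncoding genes within 500 bp of the summit raised their share to 23.8%, against 14.1% of lower-ranked regions. Windows of 200 bp, which hold fewer bases, gave GAGAG in 21.1%, GATA in 13.9%, the nuclear receptor hexamer in 2.14%, CAGCTG in 6.68%, the Scalloped motif in 7.49%, Pho in 27.8% and, as an alternative chosen after seeing the data, CAGTG in 44.9% against 25% of lower-ranked regions. Shares from single replicates for position (13.3 and 13.4% intergenic) kept within the main interval. No paired analysis was possible because there is 1 group and no contrast. With 2 replicates, a shared control and unknown depth, small differences between shares cannot be read, and a region missing from a list is not shown to be unbound.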
